A study of Homo sapiens with 9 samples.

Results

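The genes described here are 9 markers of the injured or regenerating renal tubule, CLU, CD24, HAVCR1, LCN2, SPP1, SOX9, PROM1, CD44 and ANXA2. They were chosen by symbol, with earlier results of these data known, and so were the related lists below. Shares of these genes set beside those of all genes are therefore descriptions only. From the 22277 probe sets on the array, the 26 that the platform annotation gives to one of these symbols alone were taken. The 9 genes stand among 11963 that have a probe set of their own. Expression was measured in HK-2, an immortalised line of human proximal tubule epithelium, grown in a medium with EGF, hydrocortisone, triiodothyronine, insulin, transferrin and selenium. There were 3 groups of 3 arrays: untreated cells (0 h), cells given transforming growth factor β1 (TGFβ1) for 24 h, and cells given it for 48 h. The design text calls the control vehicle where the sample labels call it untreated, and no source used here states the dose of TGFβ1. Each array holds pooled plates of 1 time point from 1 of 3 runs on separate days, done with successive passages of this 1 line, so the replicates measure the spread between runs. No culture kept for 24 or 48 h without TGFβ1 was analysed here, so time in culture and TGFβ1 cannot be told apart.

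Injured proximal tubule cells lose polarity and switch on a set of genes that healthy epithelium keeps low, and some of these are used as urinary or tissue markers of kidney damage. HAVCR1 (kidney injury molecule 1) is a surface receptor for dying cells, LCN2 (neutrophil gelatinase-associated lipocalin) a secreted carrier of iron-binding siderophores, CLU (clusterin) a secreted chaperone, and SPP1 (osteopontin) a secreted phosphoprotein that binds integrins and CD44. CD24, a small lipid-anchored glycoprotein, and PROM1 (CD133), a membrane protein of cell protrusions, mark scattered tubular cells with progenitor features, and SOX9 is a transcription factor switched on in regenerating tubule cells. CD44, the hyaluronan receptor, and ANXA2, a calcium-dependent membrane-binding annexin, are also reported in damaged tubules.

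Promoter sequences of CD24, HAVCR1 and SPP1, from the RefSeq table (GRCh38.p14), are shown. They are 3 of the 4 genes whose treated arrays all lay below the untreated arrays at both times. The other is CLU, for which no window was extracted. Each line gives the 250 bases before the gene start in the 5′ to 3′ direction of the gene, from the most upstream of 3 starts listed for CD24 and from the start listed for HAVCR1 and SPP1. The windows are chr6:106975628-106975877 (minus strand), chr5:157059117-157059366 (minus strand) and chr4:87975464-87975713 (plus strand).
CD24: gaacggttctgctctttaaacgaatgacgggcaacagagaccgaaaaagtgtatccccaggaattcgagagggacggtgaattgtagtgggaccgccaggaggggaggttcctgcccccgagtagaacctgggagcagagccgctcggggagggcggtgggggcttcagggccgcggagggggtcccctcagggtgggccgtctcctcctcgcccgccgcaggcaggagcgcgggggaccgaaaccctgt
HAVCR1: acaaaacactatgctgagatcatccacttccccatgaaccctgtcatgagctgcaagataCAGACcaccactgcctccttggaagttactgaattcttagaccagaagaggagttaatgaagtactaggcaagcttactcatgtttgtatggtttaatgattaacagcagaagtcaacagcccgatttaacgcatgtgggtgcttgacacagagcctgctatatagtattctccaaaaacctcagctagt
SPP1: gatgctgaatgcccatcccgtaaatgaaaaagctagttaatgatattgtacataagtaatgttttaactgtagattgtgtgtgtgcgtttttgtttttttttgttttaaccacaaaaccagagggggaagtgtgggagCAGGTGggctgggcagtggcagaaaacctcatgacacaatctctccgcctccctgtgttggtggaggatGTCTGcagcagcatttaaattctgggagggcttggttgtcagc
Capitals mark matches, on either strand, to 3 motifs that do not overlap here: CAGAC (the element bound by SMAD proteins, which carry the TGFβ signal), TGANTCA (AP-1) and CAGGTG (an E-box read by SNAI factors). The CD24 window shown held none of them, while the window of the second listed start held 1 CAGAC match on the opposite strand (140 to 136 bases before that start) and that of the third 1 CAGGTG match (249 to 244 bases before it). HAVCR1 had 1 CAGAC match, 190 to 186 bases before the start. SPP1 had 1 CAGAC match on the opposite strand, 43 to 39 bases before the start, and 1 CAGGTG match 112 to 107 bases before it. Among 35116 windows of this length in the table, 38.0% held CAGAC, 6.57% held TGANTCA and 17.5% held CAGGTG. Windows of other markers, not shown, also held matches: TGANTCA in LCN2, PROM1 and ANXA2, CAGGTG in LCN2 and PROM1, and CAGAC in PROM1. The CD44 window held no match. A match is a description of the letters and not a measured binding site.

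Values are on the log2 scale, and each gene is represented by its brightest probe set, judged by the mean of all 9 arrays. A gene was tested where it reached a log2 value of 4 on at least 3 arrays, which 4368 genes did. Array medians lay between 2.20 and 2.23. Adjusted p-values come from limma with Benjamini-Hochberg adjustment over those 4368 genes and a threshold of 0.05. This fit leaves the run out, so differences between runs count in its spread. A second fit with the run as a block is quoted where it changes a call, and for some other genes. Of 11 proximal tubule markers with a probe set, PAX8 alone was tested. The other 10, which include the brush border and transport genes LRP2, CUBN, AQP1 and ANPEP, had group means of at most 2.18. The summed linear signal of the 11 was 194 to 200 in untreated arrays, 137 to 147 at 24 h and 118 to 132 at 48 h. PAX8, with group means of 7.37, 6.77 and 6.56, made up most of that sum. It fell at both times (-0.60 and -0.81, adjusted p = 0.0233 and 0.00496). Of 7 markers of the loop and distal nephron SCNN1A alone was tested, and the sum was 86 to 135, 22.3 to 31.8 and 24.9 to 32.3. Of 6 fibroblast markers LUM alone was tested, and the sum was 97 to 128, 78.1 to 109 and 125 to 141, while 0 of 4 podocyte, 0 of 5 endothelial and 0 of 3 leukocyte markers passed the filter. The part of these shifts in the results below was not tested.

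After 24 h of TGFβ1, CLU and CD24 fell. None of the 7 markers tested passed the threshold with a higher value. SOX9 (0.71) and CD44 (0.29) were higher at 24 h in 3 of 3 runs without passing. Of the 9 genes, 7 passed the filter and 2, LCN2 and PROM1, stayed at background. At 24 h 2 of the 7 (28.6%) passed the threshold, both lower. Of all genes tested, 4.81% passed and 2.17% passed with lower values. At 48 h 1 of 7 (14.3%), CLU, passed, against 4.44% of all genes and 2.17% with lower values. With the replicate block 3 passed at 24 h, all lower, against 11.5% of all genes and 5.52% with lower values. At 48 h 2 passed with the block, 1 lower and 1 higher, against 10.0% of all genes, 4.81% with lower and 5.22% with higher values. The additions were HAVCR1 at 24 h and SOX9 at 48 h. On the brightest probe sets SOX9 was the one marker to pass with a higher value in either fit. The 7 had a median log2 fold change of -0.38 at 24 h and -0.31 at 48 h, beside 0.02 over all genes tested at both times. None of the 7 passed the filter through 1 group alone, although SOX9 was below 4 on 1 untreated array. In RNA from whole cultures, fewer cells of a type and less RNA per cell cannot be told apart.

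**Figure D1:**
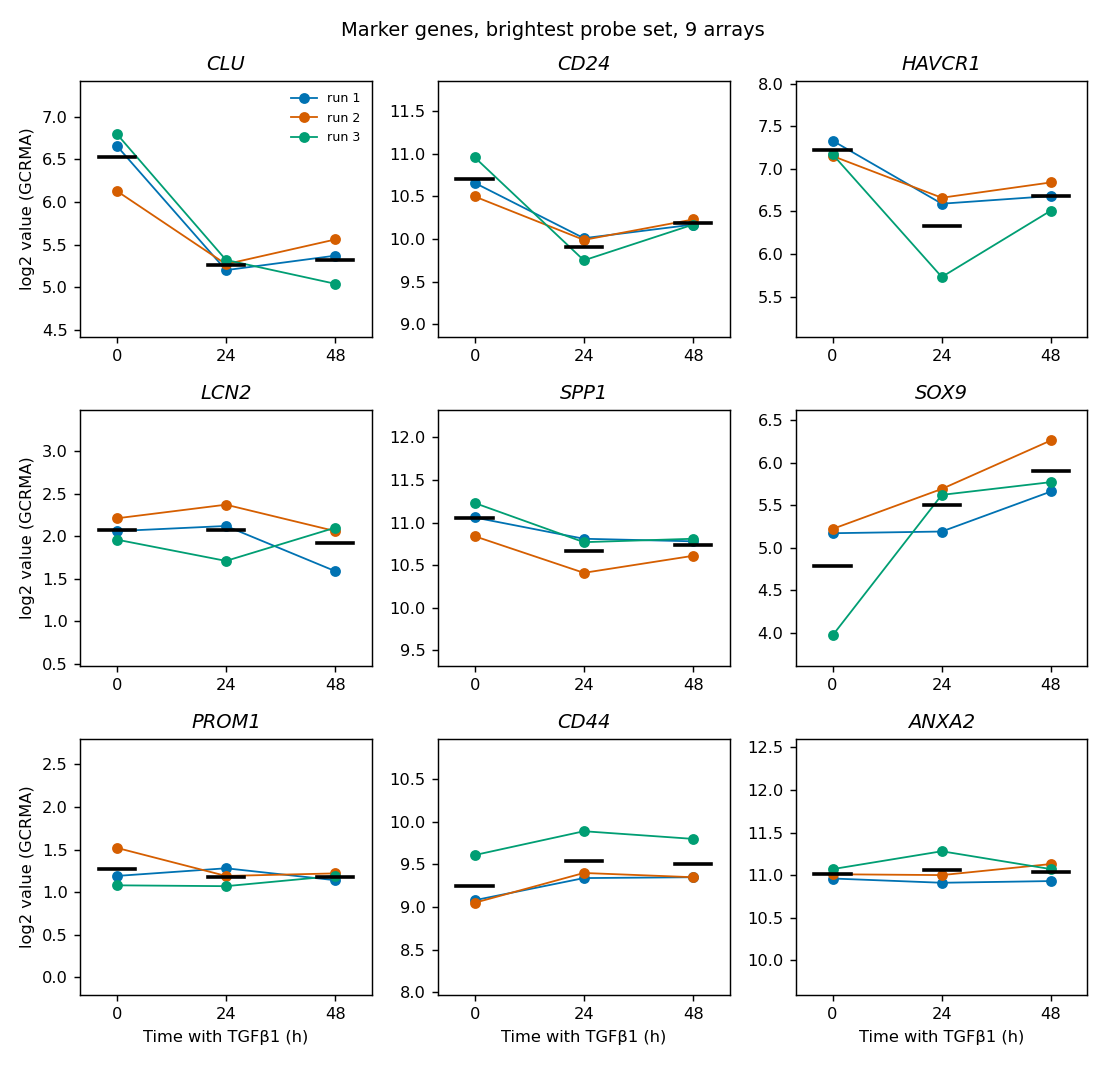
Log2 values of the brightest probe set of each of the 9 genes (vertical axis, every panel spanning 3 log2 units) against hours with TGFβ1, with 1 coloured line per run and a black bar at each group mean. CLU, CD24, HAVCR1 and SPP1 lie lower at 24 and 48 h in all 3 runs, SOX9 lies higher, and LCN2 and PROM1 stay near the array median of about 2.2 or below it.

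CLU, the secreted chaperone, had the largest decrease. On its brightest probe set (208792_s_at) the untreated arrays were at 6.66, 6.13 and 6.80 in runs 1, 2 and 3, the 24 h arrays at 5.20, 5.27 and 5.32, and the 48 h arrays at 5.37, 5.56 and 5.04. Every treated array was below every untreated one, and the 24 h and 48 h arrays overlapped. CLU fell by 1.27 ± 0.199 (SE, 3 arrays per group; 95% interval -1.72 to -0.82; 2.41-fold, adjusted p = 0.00647) at 24 h and by 1.21 (-1.66 to -0.76; 2.31-fold, adjusted p = 0.0084) at 48 h. The difference within runs was -1.45, -0.86 and -1.49 at 24 h and -1.29, -0.57 and -1.77 at 48 h, so run 2 moved least on this probe set. A second probe set of similar brightness, tested with all 5918 probe sets that passed the filter as separate features, gave -1.32 ± 0.166 (adjusted p = 0.00205) and -1.55 ± 0.166 (adjusted p = 0.00085). Of those probe sets 4.36% passed at 24 h and 4.14% at 48 h, or 10.8% and 9.38% with the replicate block. On this second set run 2 moved by -1.57 and -1.46, as far as the other runs. The third probe set was dim, with group means of 2.18, 1.56 and 1.54, and was not tested. The CLU calls held without any single array. With only 2 runs they were lost without run 1 (-1.18, adjusted p = 0.188 at 24 h; -1.17, adjusted p = 0.214 at 48 h) and without run 3 (-1.16, adjusted p = 0.08; -0.93, adjusted p = 0.142).

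LCN2, the siderophore-binding lipocalin, read near background in every group. Its 1 probe set read 2.06, 2.21 and 1.96 in untreated cells, 2.12, 2.37 and 1.71 at 24 h and 1.59, 2.06 and 2.10 at 48 h. The groups overlapped, no array reached the filter, and the gene was not tested.

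SPP1, the secreted ligand of integrins and CD44, was bright in every array and slightly lower with TGFβ1, without passing the threshold. Untreated arrays were at 11.06, 10.84 and 11.23, 24 h arrays at 10.81, 10.41 and 10.77, and 48 h arrays at 10.78, 10.61 and 10.81. The treated arrays all lay below the untreated ones, by a narrow margin between the run 2 untreated array and the highest treated arrays. The log2 fold change was -0.38 ± 0.16 at 24 h (95% interval -0.74 to -0.02, adjusted p = 0.286) and -0.31 at 48 h (-0.67 to 0.05, adjusted p = 0.472). Within runs SPP1 was lower in 3 of 3 at both times, by 0.25 to 0.46 at 24 h and 0.22 to 0.42 at 48 h. With the replicate block it still did not pass (adjusted p = 0.0589 and 0.124).

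HAVCR1, the injury receptor that gives kidney injury molecule 1, was lower at 24 h, and whether it passed depended on the run block. Its 1 probe set (207052_at) read 7.33, 7.15 and 7.17 in untreated cells, 6.59, 6.66 and 5.73 at 24 h and 6.68, 6.84 and 6.51 at 48 h. No treated array overlapped an untreated one, and the 24 h array of run 3 was the lowest of all 9. The log2 fold change at 24 h was -0.89 ± 0.234 (95% interval -1.42 to -0.37, 1.86-fold), with an adjusted p of 0.0691, or 0.0158 with the replicate block. Without the 24 h array of run 3 the value was -0.59 (adjusted p = 0.106). At 48 h it was -0.54 (-1.07 to -0.02, adjusted p = 0.335; 0.11 with the block). The differences within runs were -0.74, -0.49 and -1.44 at 24 h and -0.65, -0.31 and -0.67 at 48 h.

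CD24, the lipid-anchored glycoprotein, fell at 24 h. At 48 h the arrays of its brightest probe set lay between the other groups, and CD24 passed against neither. On the brightest of its 6 probe sets (209771_x_at) untreated arrays were at 10.66, 10.50 and 10.96, 24 h arrays at 10.01, 9.99 and 9.75, and 48 h arrays at 10.17, 10.23 and 10.17. The 3 groups did not overlap, with untreated highest and 24 h lowest. All 48 h arrays lay above all 24 h arrays for 6.34% of the genes tested. CD24 fell by 0.79 ± 0.15 at 24 h (95% interval -1.13 to -0.45, 1.73-fold, adjusted p = 0.0173). At 48 h the value was -0.52 (-0.85 to -0.18, 1.43-fold, adjusted p = 0.103). The 24 h call was lost without the untreated array of run 1 (-0.82, adjusted p = 0.0576) and without the 24 h array of run 3 (-0.71, adjusted p = 0.074). It was also lost when the 48 h arrays were left out of the fit (adjusted p = 0.0765) and without any 1 of the 3 runs (adjusted p from 0.0549 to 0.189).

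All 6 CD24 probe sets gave lower values at 24 h, from -0.85 to -0.72, and at 48 h, from -0.61 to -0.28. The groups were not fully separate on all of them. The 48 h arrays overlapped the 24 h arrays on 209772_s_at and 208651_x_at, and the untreated arrays on 266_s_at. In limma over 5918 probe sets 3 of the 6 passed at 24 h (adjusted p from 0.0165 to 0.128), against 4.36% of all probe sets, and 0 of 6 at 48 h (0.114 to 0.576), against 4.14%. The 6 sets read the same gene on the same arrays and are not independent. Run 3 gave the largest difference at 24 h on every one of them, from -1.19 to -1.66, where runs 1 and 2 gave -0.36 to -0.65. The 3 sets whose names end in x_at can match other transcripts, and CD24 has closely related pseudogenes, so signal of CD24 itself and of such copies cannot be told apart on those sets. Of the 3 calls at 24 h, 2 were on x_at sets. The 3 other sets gave -0.72, -0.81 and -0.82 at 24 h, and 1 of them passed in limma (adjusted p = 0.0361, against 0.0987 and 0.101).

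PROM1, the other surface marker of tubular progenitor cells, was not detected above background. Its 1 probe set read 1.19, 1.52 and 1.08 in untreated cells, 1.28, 1.19 and 1.07 at 24 h and 1.14, 1.22 and 1.19 at 48 h. No array reached the filter, the groups overlapped and the gene was not tested.

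CD44, the hyaluronan receptor that also binds osteopontin, was slightly higher in all 3 runs at both times and did not pass the threshold. On its brightest probe set (212063_at) untreated arrays were at 9.08, 9.05 and 9.61, 24 h arrays at 9.34, 9.40 and 9.89, and 48 h arrays at 9.35, 9.35 and 9.80. On this probe set the groups overlapped because run 3 was higher at every time. Its difference within a run was similar across runs, 0.26, 0.35 and 0.28 at 24 h and 0.27, 0.30 and 0.19 at 48 h. Some other bright sets differed more between runs, such as 212014_x_at (0.12, 0.46 and 0.77 at 24 h). On 209835_x_at and 212014_x_at the 24 h arrays did not overlap the untreated ones. The log2 fold change was 0.29 ± 0.218 at 24 h (95% interval -0.20 to 0.79, adjusted p = 0.564) and 0.25 at 48 h (-0.24 to 0.74, adjusted p = 0.736). The value at 24 h was 0.12 without the 24 h array of run 3 and 0.47 without the untreated array of run 3, and at 48 h it was 0.10 without the 48 h array of run 3 and 0.43 without that untreated array. With the block the SE was 0.0991 and the adjusted p 0.0992 and 0.176. The 6 CD44 probe sets that passed the filter gave 0.29 to 0.58 at 24 h and 0.25 to 0.50 at 48 h, and 1 of the 6 passed at 24 h with the block (lowest adjusted p = 0.039), against 10.8% of all probe sets. The other 2 sets were dim, with group means from 1.19 to 2.42.

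SOX9, the transcription factor of regenerating tubule cells, was the one marker whose mean was at least 2-fold higher at a treated time. On its brightest probe set (202935_s_at) untreated arrays were at 5.17, 5.22 and 3.97, 24 h arrays at 5.19, 5.69 and 5.62, and 48 h arrays at 5.66, 6.26 and 5.77. The untreated array of run 3 stood well below the other untreated arrays, and the 48 h arrays lay above all untreated arrays while the 24 h arrays overlapped them. The log2 fold change was 0.71 ± 0.328 at 24 h (95% interval -0.02 to 1.45, adjusted p = 0.33) and 1.11 at 48 h (0.37 to 1.85, 2.16-fold, adjusted p = 0.109; 0.0385 with the replicate block). Without the untreated array of run 3 the values were 0.31 (adjusted p = 0.604) and 0.70 (adjusted p = 0.133). The differences within runs were 0.03, 0.47 and 1.65 at 24 h and 0.49, 1.04 and 1.80 at 48 h.

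The second SOX9 probe set (202936_s_at) was dimmer and its runs were closer together. It read 3.65, 3.55 and 3.11 in untreated cells, 4.17, 4.50 and 4.04 at 24 h and 4.48, 4.63 and 4.04 at 48 h. Its treated arrays all lay above its untreated arrays, and its differences within runs were 0.53, 0.95 and 0.92 at 24 h and 0.83, 1.08 and 0.92 at 48 h. Over all probe sets it rose at 48 h (0.95 ± 0.212, adjusted p = 0.0379; 0.00212 with the block), and at 24 h its value was 0.80 (adjusted p = 0.0764; 0.00459 with the block). It reached a log2 value of 4 in treated arrays only, so it entered the test through the groups where it was high.

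ANXA2, which forms a membrane-binding complex with S100A10, did not differ beyond the spread at either time. On its brightest probe set (210427_x_at) untreated arrays were at 10.96, 11.01 and 11.07, 24 h arrays at 10.91, 11.00 and 11.28, and 48 h arrays at 10.93, 11.13 and 11.07. The log2 fold change was 0.05 ± 0.138 at 24 h (95% interval -0.26 to 0.36, adjusted p = 0.912) and 0.03 at 48 h (-0.28 to 0.34, adjusted p = 0.985). All 3 probe sets gave -0.02 to 0.05 at 24 h and -0.01 to 0.03 at 48 h. ANXA2 has related pseudogenes that these x_at sets can also match, and 1 further probe set listed for ANXA2 and another gene was not used. S100A10 had group means of 11.12 without TGFβ1, 11.17 at 24 h and 11.09 at 48 h (adjusted p = 0.917 and 0.984).

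**Figure D2:**
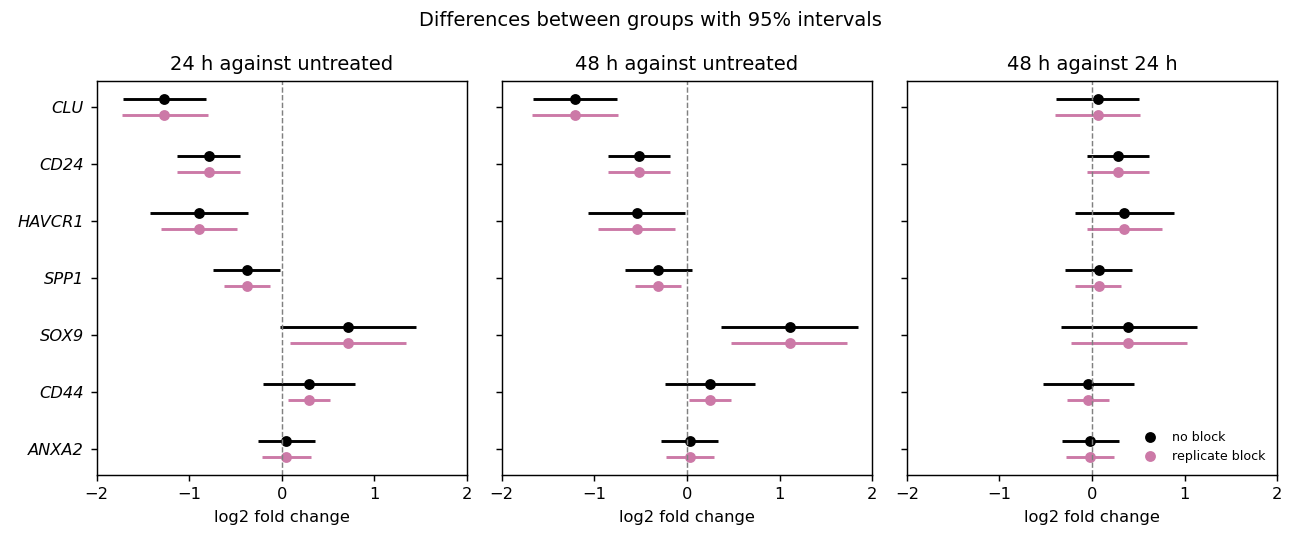
Log2 fold change of the 7 tested genes (horizontal axis, 0 dashed) with 95% intervals, without (black) and with (pink) the run as a block, for the 3 comparisons of groups. The intervals of CLU, CD24, HAVCR1 and SPP1 lie below 0 at 24 h with both fits. CD44 and SPP1 have much narrower intervals with the block. With it the intervals of CD44 and SOX9 lie above 0 at 24 and 48 h against untreated. Every interval of 48 h against 24 h includes 0. The intervals are not adjusted for the number of genes tested.

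Between 24 and 48 h none of the 7 genes passed, and neither did any other gene tested (0.0% of 4368 in limma, 219 genes and 0 of the 7 at an unadjusted p under 0.05; with the block again 0 genes, 709 and 0 of the 7 unadjusted). SOX9 had the largest value, 0.39 ± 0.328 (95% interval -0.34 to 1.13, adjusted p = 0.793), higher in 3 of 3 runs. HAVCR1 was at 0.35 (-0.18 to 0.88) and CD24 at 0.28 (-0.06 to 0.61), each again higher at 48 h in 3 of 3 runs. Without the 24 h array of run 3 the HAVCR1 value was 0.05 and the CD24 value 0.19, and without the 48 h array of run 2 the SOX9 value was 0.21. CLU was at 0.06 (-0.39 to 0.51), with 2 runs higher and 1 lower. These intervals do not show that the 24 h and 48 h levels were alike, only that a difference of 24 h from 48 h could not be separated from the spread.

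The difference from untreated cells had 1 sign in all 3 runs for 6 of the 7 genes at both times, with ANXA2 the exception. The share was 44.8% of all genes tested at 24 h and 41.5% at 48 h. Run 3 gave the largest of the 3 differences in 6 of the 7 at 24 h and in 5 of 7 at 48 h. Over all genes tested run 3 gave the largest in 47.5% at 24 h and in 29.1% at 48 h. At 24 h 4 of the 7 had treated arrays that all lay below the untreated ones, which 7.72% of all genes tested did. At 48 h the count was 4 lower and 1 higher, against 8.31% and 9.75% of all genes. The 4 lower genes were CLU, CD24, HAVCR1 and SPP1 at both times.

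**Figure D3:**
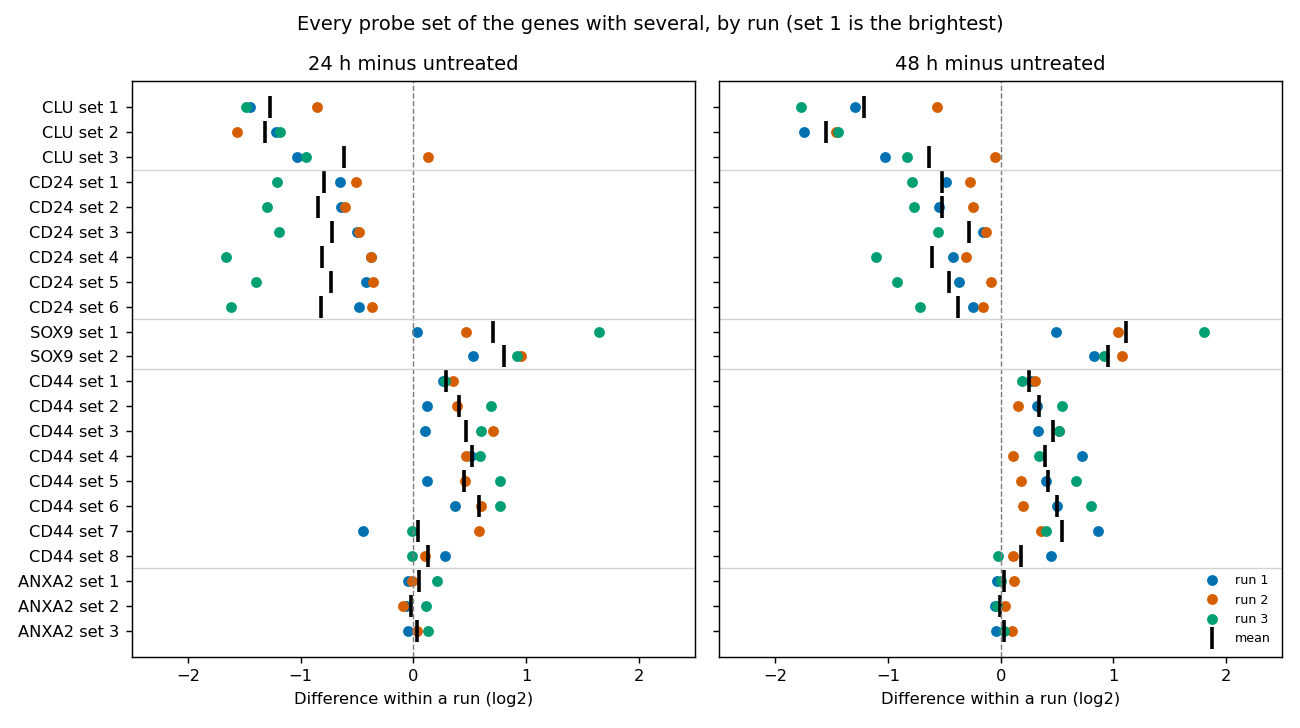
Difference from untreated cells within each run (coloured points, log2) and its mean (black bar) for all 22 probe sets of the 5 genes with more than 1, ordered by brightness within a gene. The CD24 sets all lie below 0, with run 3 farthest at 24 h, the 6 bright CD44 sets and both SOX9 sets lie above 0, and the ANXA2 sets lie within 0.21 of 0.

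Most other genes of tubular injury and repair did not pass. Of 34 further injury and failed-repair markers 32 had a probe set and 25 were tested. At 24 h 2 rose and 5 fell (7 of 25, or 28.0%, against 4.81% of all genes), with a median of -0.19. At 48 h 1 rose and 4 fell (5 of 25, against 4.44%), with a median of -0.23. With the block 4 rose and 6 fell at both times, where 11.5% of all genes passed at 24 h and 10.0% at 48 h. The genes that fell at 24 h were GDF15, a stress-induced cytokine (-4.03), the adhesion molecule VCAM1 (-2.36), the lipid droplet protein PLIN2 (-1.71), ANXA1 (-1.19) and the cytokine IL18 (-0.92), with adjusted p from 0.000643 to 0.0268. AKAP12, a scaffold of protein kinase A (1.54, adjusted p = 0.00308), and HBEGF, a ligand of the EGF receptor (1.16, adjusted p = 0.0264), rose. At 48 h AKAP12 rose (1.68, adjusted p = 0.00196), and GDF15 (-3.77, adjusted p = 0.00075), PLIN2 (-1.62, adjusted p = 0.00709), ANXA1 (-0.86, adjusted p = 0.0459) and the secreted protease inhibitor CST3 (-0.58, adjusted p = 0.0222) fell. GDF15 entered the test through untreated arrays alone, all its treated arrays lying below 4, and VCAM1 reached 4 on 1 treated array only. The counts above include GDF15 at both times and VCAM1 at 24 h. The urinary markers TIMP2 (-0.31 and -0.46) and IGFBP7 (-0.12 at both times) did not pass.

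Among 28 further genes of renal progenitors and nephron precursors, 23 had a probe set and 7 were tested. At both times 3 fell and 0 rose: the epithelial adhesion gene EPCAM (-1.27 and -1.17, adjusted p = 0.00116 and 0.00172), the retinaldehyde dehydrogenase ALDH1A3 (-0.91 and -1.01, adjusted p = 0.0477 and 0.0311) and the kidney transcription factor PAX8. ALDH1A3 reached 4 in untreated arrays only, and PAX8 is also the proximal tubule marker described above. The 3 genes are 42.9% of the 7 tested, where 4.81% of all genes passed at 24 h and 4.44% at 48 h. That share includes ALDH1A3, which entered the test through the group where it was high. With the block 5 fell at 24 h and 3 at 48 h, where 11.5% and 10.0% of all genes passed. The list's median was -0.66 at 24 h and -0.36 at 48 h. The precursor genes SIX2, CITED1, WT1 and LHX1 had group means of at most 2.33 and were not tested.

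Of 31 ligands, receptors and other partners of the markers, 26 had a probe set and 15 were tested, of which 1 rose at 24 h. That is 6.67%, near the 4.81% of all genes. With the block 2 rose and 1 fell at 24 h, where 11.5% of all genes passed. At 48 h 0 passed in limma and 5 had an unadjusted p under 0.05, and with the block 4 rose and 1 fell, where 10.0% of all genes passed. The one that rose was MMP9, a protease that docks on CD44, with group means of 3.01, 5.12 and 3.40 (2.12 at 24 h, adjusted p = 0.0202). It reached 4 at 24 h only, so the 1 call of this list came through the group where MMP9 was high. Of 7 integrin subunits on the list, which form receptors for osteopontin, 5 were tested and none passed without the block. The values at 24 and 48 h were 0.52 and 0.70 for ITGAV, 0.33 and 0.55 for ITGB1, 0.52 and 0.80 for ITGB3, 0.34 and 0.03 for ITGB5, and 0.89 and 0.80 for ITGA5. With the block ITGA5 passed at 24 h (adjusted p = 0.0268), and ITGAV, ITGB1, ITGB3 and ITGA5 passed at 48 h (adjusted p = 0.019, 0.0366, 0.019 and 0.0457), while ITGB5 did not (adjusted p = 0.947). ITGA4 and ITGA9 stayed below the filter. PLAT, the partner that fell with the block at both times, had -0.74 and -0.83 (adjusted p = 0.00789 and 0.00489 with the block). LRP2, the endocytic receptor that takes up LCN2 and CLU, had group means of 1.36, 1.54 and 1.67 and was not tested, nor were SLC22A17, another LCN2 receptor (1.73, 1.95 and 1.92), and ESRP1, which controls CD44 splicing (1.47, 1.47 and 1.31).

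Of the other annexins 10 had a probe set and 7 were tested. ANXA1 and ANXA4 fell at both times, ANXA4 by 1.15 (adjusted p = 0.00699) and 1.13 (adjusted p = 0.00771), and 0 rose. These 2 are 28.6% of the 7, where 4.81% of all genes passed at 24 h and 4.44% at 48 h. ANXA5 was at 0.04 and 0.13 and did not pass. ANXA1 and ANXA3 are also in the injury list.

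**Figure D4:**
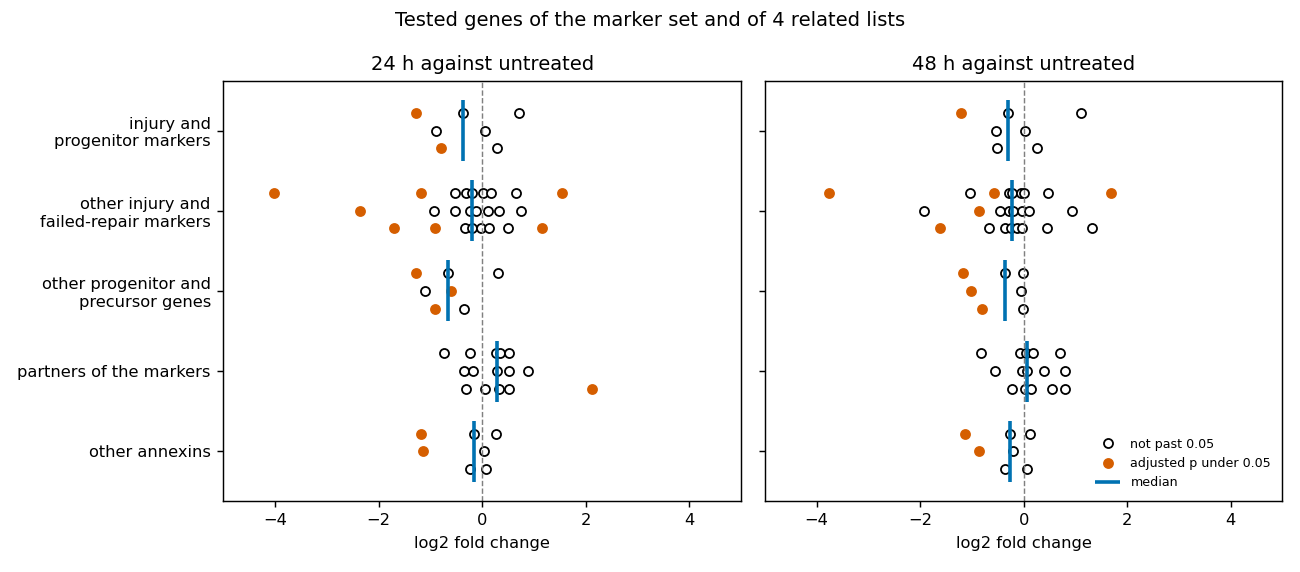
Log2 fold change at 24 h and 48 h against untreated for each tested gene of the injury and progenitor markers and of the 4 related lists (orange, adjusted p under 0.05 in limma; open, not past it; blue bar, the list's median). The progenitor list holds 3 lower genes at both times, and the injury list spans from -4.03 to 1.54 at 24 h.

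The genes whose values over the 9 arrays were most like those of the 2 markers that passed were found by Pearson correlation among the 4368 genes tested, as a description. For CLU they were ALDH1A3 (r = 0.978), the protease inhibitor SERPINB1 (r = 0.959) and EPCAM (r = 0.953). For CD24 they were ATP1B1, the beta subunit of the sodium pump (r = 0.981), CDKN2AIP (r = 0.972) and the secreted protein gene FAM3C (r = 0.963). The arrays share runs and time points, which enter every such r. ATP1B1 had -0.78 at 24 h (adjusted p = 0.0267) and -0.56 at 48 h (adjusted p = 0.106). It was picked for its likeness to CD24 on these same arrays, so a similar order of times follows from that choice.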

How the data were processed

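Total RNA of HK-2 cells was read on a 1-colour Affymetrix array. The deposited log2 values, 1 per probe set, were made with GCRMA (background model, normalization between arrays, summary per probe set), per the submitters' processing notes. Neither its version nor detection calls were stated. The log2 scale is read from the values, at most 12.5. Folds at values near background are compressed, and the number of arrays limits precision.

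Of 22277 probe sets 62 were controls; 19064 of the others had 1 gene symbol (19052 matched by gene ID to the RefSeq table), 1043 of all probe sets had several and 2164 none. The brightest set stood for a gene. All 9 arrays entered 1 limma 3.58.1 fit (R 4.3.3, lmFit, eBayes) on 4368 genes (36.5%), checked on simulated data. The simulated noise was independent between arrays, so that check does not cover differences shared by the arrays of a run. Deviations from group means correlated at 0.378 to 0.662 between arrays of 1 replicate number. Between arrays of different number and different group they correlated at -0.526 to 0.185, so the numbers were taken to mark runs. Deviations within a group cancel out, so positive values between arrays of 1 number push the others down.

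Members and lists were chosen with earlier results of these data known. All 9 members are named. List genes are named if past the threshold without the block. TIMP2, IGFBP7, the integrins, S100A10, ANXA5 and genes below the filter were named for their role after their values were seen. PLAT was named for its call with the block. Other list genes past the threshold with the block only are counted and not named. Alternatives were other filters, probe set rules, scalings, variance models, the run block and leaving out arrays or runs.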

Additional observations from a re-analysis of the deposited data

How the results depend on the processing

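Direction and side of the threshold of the 7 genes' differences were kept in 412 of the gene-by-setting comparisons, while 10 lost the threshold, 4 gained it and 15 changed sign, all of the last with main values between -0.04 and 0.07. Markers past the threshold at 24 h numbered 2, 1 when only the 2 groups compared were fitted, and 0 to 2 when an array or a run was left out. At 48 h they numbered 1, and 2 with the replicate block, with the mean of all probe sets of a gene or with an intensity trend and robust prior (CD24, adjusted p = 0.0248), and 0 to 1 with an array or run left out. Genes of the 4 related lists past the threshold numbered 12 at 24 h and 9 at 48 h, 19 and 19 with the replicate block, and 1 to 12 and 1 to 10 with an array or run left out. Over all genes the block moved the count from 210 to 501 at 24 h and from 194 to 438 at 48 h, and it changed no call of a marker other than HAVCR1 at 24 h and SOX9 at 48 h. Sign changes came with the mean of all probe sets for 48 h against 24 h (CLU -0.06, CD44 0.02), and with an array or run left out for ANXA2 (-0.06 to 0.13 at 24 h, -0.02 to 0.09 at 48 h, -0.10 to 0.09 between them) and for 48 h against 24 h of CLU (-0.06 to 0.23), CD44 (-0.19 to 0.13) and SPP1 (-0.06 to 0.14). The cause was not tested. Other scalings changed no direction of a marker. Signal near background limits LCN2 and PROM1.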
